A study of Saccharomyces cerevisiae with 5 samples.

Results

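The large subunit of the cytosolic ribosome of budding yeast (Saccharomyces cerevisiae) was followed at the transcript level through its protein genes. Members were all features whose gene symbol is RPL with a number and an optional A or B, together with the stalk genes RPP0, RPP1A, RPP1B, RPP2A and RPP2B. The rule uses names and no measured value. It found 67 genes on 68 features, out of 5196 named genes on the array; RPL30 has 2 features with identical values. A further 14 of the 81 large subunit symbols in RefSeq, RPL2A, RPL40A and RPL41A among them, were not analysed here.

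The ribosome is the machine that translates messenger RNA, and its large subunit holds the peptidyl transferase centre, the tunnel through which the new chain leaves, and the stalk that recruits translation factors. In yeast most of its proteins are encoded by a pair of genes, A and B, that arose in a whole-genome duplication and differ little in coding sequence. Ribosomal protein genes are known to be transcribed together under Rap1, Fhl1 and Ifh1, and to follow growth rate through the TOR kinase.

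Recovery RNA came from exponentially growing cells that were kept for 16 h at 30 MPa and 25 °C, returned to 0.1 MPa and grown on for 2 h. Decompressed RNA came from cells given the same pressure treatment and harvested straight after it (0 h), so both RNAs are from pressure-treated cells and no unpressurized culture enters these ratios. Strain and genotype are not given in the sources used here. PolyA RNA was labelled with Cy5 (recovery) and Cy3 (decompressed) and hybridized together on 2-colour spotted arrays, in 3 hybridizations of independent biological samples with the same dye order. The arrays of hybridizations 1 and 2 have a high power and a low power scan, and that of hybridization 3 has 1 scan, so that 5 scans hold 2089 to 5007 values each. Values are log2 ratios of recovery over decompressed. That direction is likely from the order of the channels in the labels but is not stated there, and every direction below would turn round with it. A ratio compares shares of polyA RNA, so that neither cell number nor RNA per cell can be read from it. More of a transcript cannot be told from less of the others.

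Coverage was high. Of the 67 genes, 63 had a value in all 3 hybridizations (94%), against 1891 of 6235 genes and unnamed features (30.3%), and these 63 were tested. RPL17B, RPL24A, RPL40B and RPP1A had values in 2 hybridizations. With 3 arrays, the median standard error of a tested member was 0.25 on the log2 scale.

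Large subunit genes were mostly a little higher in recovery, with few individual calls. The median of the 63 mean log2 ratios was 0.44, against 0.44 for the 44 tested small subunit genes and 0.09 for all tested genes. A mean above 0 was found for 58 members (92.1%), against 56.6% of all tested genes. With the trend on gene span removed, the median was 0.24 and 50 members lay above 0, and with that trend taken over spans that are multiples of 3, these were 0.13 and 32 of 41. After centring 52 of 63 lay above 0. The limma test called 10 members higher and 0 lower at an adjusted p of 0.05 (Benjamini-Hochberg over all 1891), which is 15.9% of the members beside a background of 15.1% called higher and 12.2% called lower. The share called higher was therefore near the background. An unadjusted p under 0.05, in either direction, was found for 21 of the 63 members, against 738 of all 1891. Of the small subunit genes 13 were called higher (29.5%) and 0 lower. Without hybridization 1 the test called 4 members higher beside a background of 6.08%, without hybridization 2 it called 7 beside 8.2%, and without hybridization 3 it called 7 beside 13.9%. Centring each hybridization on its median left 8 members called beside 12.3%. The robust prior, single features and the 5 scans with a random block each called 10, beside 15.5%, 14.9% and 15.2%.

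The members differed from all tested genes at the lower end of the distribution more than at the upper end. Their quartiles of the mean log2 ratio were 0.17 and 0.58, against -0.31 and 0.48 over all tested genes. A mean of 1 or more, a doubling, was reached by 6 members (9.52%), against 6.87% of all tested genes. A mean of -1 or less was found for 0 members, against 6.08% of all. These shares were not tested, since a list of genes chosen for one complex is described here and not compared by a set test.

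**Figure D1:**
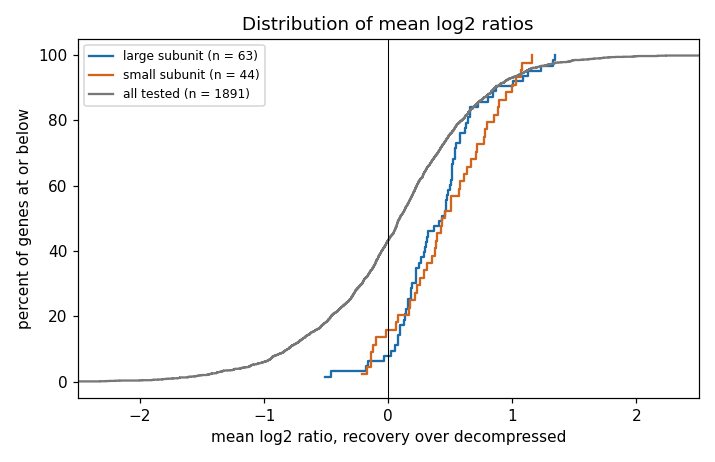
Cumulative share of genes (vertical axis, percent) at or below a mean log2 ratio of recovery over decompressed (horizontal axis) for 63 large subunit genes, 44 small subunit genes and all 1891 tested. Few ribosomal protein genes lie below 0, while the large subunit line meets that of all genes at its upper end. The axis stops at ±2.5, and a few of all tested genes lie outside.

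The hybridizations were not alike. The median of the 63 members was 0.50 in hybridization 1, 0.29 in hybridization 2 and 0.36 in hybridization 3, against 0.13, 0.16 and 0.00 for all tested genes. In hybridization 2, 65.1% of members were above 0, against 58.9% of all tested genes. The 22 members below 0 there included 14 that were above 0 in both other hybridizations. RPL14A had the lowest value there, -0.65, beside 1.13 in hybridization 1. All 3 values were above 0 for 31 members (49.2%), against 31.9% of all tested genes, and all 3 were below 0 for 3 members (4.76%), against 23.8%. Across the 63 genes, which share their arrays and are no replicates of each other, Pearson r was 0.20 between hybridizations 1 and 2, 0.52 between 1 and 3 and 0.36 between 2 and 3. Over all tested genes these were 0.72, 0.59 and 0.55.

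**Figure D2:**
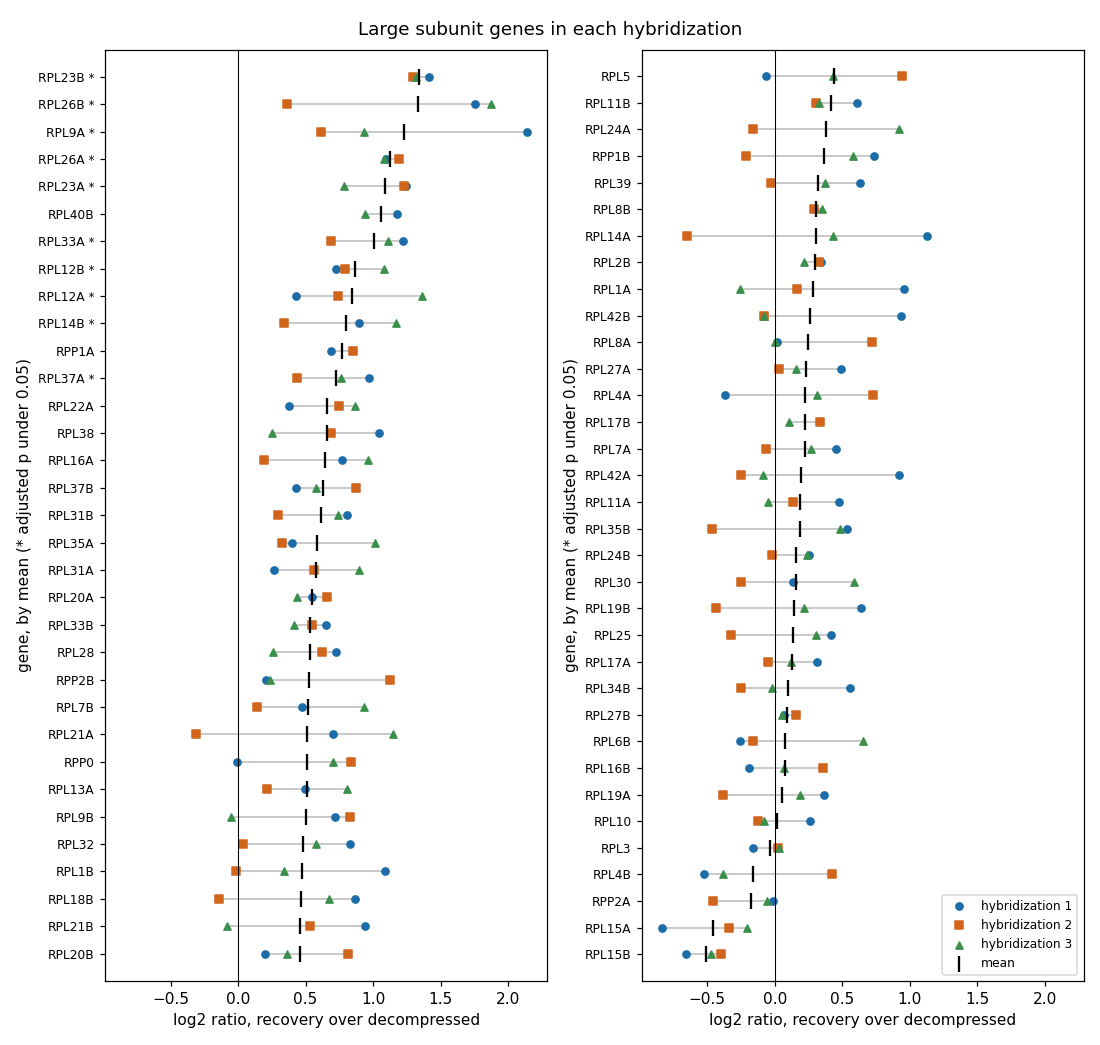
Log2 ratio of recovery over decompressed (horizontal axis) for each of the 67 genes in each hybridization, ordered by the mean of its measured values (black tick). Grey lines join a gene's lowest and highest value, and an asterisk marks the 10 genes called higher. RPL23B and RPL26A had narrow ranges above 1, while RPL26B, RPL9A and RPL14A spread widely.

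By role, counts of called genes are small and stand beside the background of 15.1% called higher. In the stalk and the GTPase-associated centre, where elongation factors are recruited, 2 of 6 tested genes were called higher, with a median of 0.52. Both encode L12 (uL11), the protein at the base of the stalk. RPL12B (YDR418W) had log2 ratios of 0.73, 0.79 and 1.08 in hybridizations 1, 2 and 3. Its mean was 0.86 ± 0.19 (SD, n = 3, limma adjusted p = 0.0165). RPL12A (YEL054C) had 0.43, 0.74 and 1.36, with a mean of 0.84 ± 0.48 (adjusted p = 0.0255). All 6 values were above 0, with the highest of each gene in hybridization 3. RPL12B missed the threshold without hybridization 1, 2 or 3 (0.93, 0.90 and 0.76), and RPL12A without hybridization 2 or 3 (0.89 and 0.58).

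RPP0, which anchors the stalk and has no paralog, was at -0.01, 0.84 and 0.70 and was not called (mean 0.51 ± 0.46). None of the genes of the acidic P proteins, which form the arms of the stalk, was called. RPP1B was at 0.73, -0.21 and 0.58 (mean 0.37 ± 0.51), and RPP1A at 0.69 and 0.85 in hybridizations 1 and 2. RPP2B stood at 0.21, 1.13 and 0.24, and RPP2A at -0.02, -0.46 and -0.06, so that the lowest value of RPP2B was above the highest of RPP2A. Their means were 0.52 ± 0.52 and -0.18 ± 0.24, and the difference between these copies did not pass the test (adjusted p = 0.603).

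None of the 8 tested genes of the peptidyl transferase centre and the tRNA sites was called. Their median was 0.27, and it was 0.82 in hybridization 1 but 0.00 in hybridization 2 and -0.03 in hybridization 3. RPL3, whose protein reaches towards the catalytic centre, was close to 0 in every array, at -0.16, 0.02 and 0.03. RPL10, which joins the subunit late in its assembly, was at 0.26, -0.13 and -0.08. RPL28, the site of a classical cycloheximide resistance mutation, had the smallest p of this group at 0.73, 0.62 and 0.26 (mean 0.54 ± 0.25, adjusted p = 0.114). RPL1B, for the L1 stalk beside the tRNA exit site, came next at 1.09, -0.02 and 0.34 (mean 0.47 ± 0.57, adjusted p = 0.207). RPL2B varied less, at 0.34, 0.33 and 0.22 (mean 0.30 ± 0.07).

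The 5S ribonucleoprotein and the central protuberance gave 5 tested genes with means between 0.19 and 0.51 and no call. RPL5 and RPL11, which bind 5S rRNA and enter the pre-ribosome with it, showed means of 0.44 ± 0.50 for RPL5, 0.41 ± 0.17 for RPL11B and 0.19 ± 0.27 for RPL11A. RPL5 ran from -0.06 in hybridization 1 to 0.94 in hybridization 2. RPL21A was at 0.70, -0.31 and 1.15, and RPL21B at 0.94, 0.53 and -0.08. Each copy had 1 value below 0, on different arrays.

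Around the exit tunnel 2 of 14 tested genes were called higher, near the background of 15.1%. Both encode L26 (uL24), a protein at the tunnel exit. RPL26A (YLR344W) had 1.09, 1.19 and 1.08, a mean of 1.12 ± 0.06 (SD, n = 3) and a limma adjusted p of 0.00378, and it kept its call in every processing tried. RPL26B (YGR034W) had 1.76, 0.36 and 1.87, with a mean of 1.33 ± 0.84 (adjusted p = 0.00521). The arrays lay close together for RPL26A and differed by over 1 log2 unit for RPL26B, whose value was 1.06 and no longer called without hybridization 3. RPL22A, at 0.38, 0.75 and 0.86, lay just above the threshold (adjusted p = 0.0546). RPL25, which lies beside the exit and contacts the signal recognition particle, averaged 0.13 ± 0.40, and RPL39, which lines the tunnel, 0.32 ± 0.33. RPL4B, whose protein extends into the tunnel wall, was lowest at -0.53, 0.42 and -0.39.

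At the interface between the subunits 2 of 4 tested genes were called higher, beside the background of 15.1%. They are the pair that encodes L23 (uL14). RPL23B (YER117W) had 1.41, 1.30 and 1.32, the highest mean of all 63 members at 1.34 ± 0.06 (SD, n = 3, limma adjusted p = 0.00116). RPL23A (YBL087C) had 1.25, 1.23 and 0.79, with a mean of 1.09 ± 0.26 (adjusted p = 0.00512). Each of the 6 values was above 0.7, and RPL23B kept its call in every processing tried. Leaving out hybridization 1 put RPL23A at 1.01 with an adjusted p of 0.0546, no longer a call. RPL30, which represses its own splicing, was at 0.14, -0.25 and 0.59, and RPL24B at 0.26, -0.02 and 0.24.

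RPL40B (YKR094C) encodes a fusion of ubiquitin to a ribosomal protein and was measured in 2 hybridizations, at 1.18 and 0.94. In the fit over the 4368 genes and features with at least 2 hybridizations it was called higher (mean 1.06, limma adjusted p = 0.00704), where 13 of 67 members were called higher and the background was 11.9%. RPL22A and RPL38 were the other additions in that fit.

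Of the 26 other tested genes, for surface and rRNA-binding proteins, 4 were called higher and 0 lower, with a median of 0.47. The background was 15.1% called higher and 12.2% called lower. RPL9A (YGL147C), for uL6 near the base of the stalk, had 2.14, 0.61 and 0.93, with a mean of 1.23 ± 0.81 (limma adjusted p = 0.00777). Its value in hybridization 1 is the highest of any member there, and its values in hybridizations 1 and 2 come from the low power scan alone. Without hybridization 1 RPL9A was at 0.77 and missed the threshold. RPL33A (YPL143W) had 1.22, 0.69 and 1.11 (mean 1.01 ± 0.28, adjusted p = 0.00833), and without hybridization 1 it was at 0.90 with no call.

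RPL14B (YHL001W) had 0.90, 0.34 and 1.17 (mean 0.80 ± 0.42, limma adjusted p = 0.0296). RPL37A (YLR185W) had 0.97, 0.43 and 0.76 (mean 0.72 ± 0.27, adjusted p = 0.0392). These 2 were the weakest calls. RPL14B missed the threshold without hybridization 1 or 3 (0.75 and 0.62), and RPL37A without any 1 of the 3 (0.60 to 0.87). Both also missed it with low power scans alone (0.77 for RPL14B and 0.71 for RPL37A) and after centring (0.70 and 0.62). RPL38 and RPL32, which have no paralog, were not called at 0.66 ± 0.40 and 0.48 ± 0.41. Of all 10 members without a paralog, 0 were called, at a median of 0.38, beside a background of 15.1% called higher and 12.2% called lower.

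The genes of L15 (eL15), a protein buried in the rRNA, went the other way from most members. RPL15A (YLR029C) had -0.83, -0.34 and -0.21, and RPL15B (YMR121C) had -0.66, -0.40 and -0.48. Both were below 0 on every array, and they had the lowest means of all members, -0.46 ± 0.33 and -0.51 ± 0.13, without a call (limma adjusted p = 0.183 and 0.125). The third gene below 0 on all arrays was RPP2A.

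The A and B copies of one protein were compared as differences within each hybridization, in which any shift shared by an array cancels. A shift between scans does not cancel where the copies rest on unlike scans. Spotted probes of near-identical copies can bind each other's transcripts, so the value of a single copy is uncertain. Of 25 pairs on the array, 22 were measured in all hybridizations. The limma test covered the 38 A/B pairs of the array with complete values, which were these 22 and 16 small subunit pairs. At an adjusted p of 0.05, 0 of the 22 and 0 of all 38 differed. Of the 22, 0 had an unadjusted p under 0.05. No pair outside the ribosome was among the 38. The 95% intervals reached a median of 0.62 to either side of the difference. They are not adjusted for the number of pairs, and larger differences also went uncalled, such as 0.95 for the small subunit pair RPS7 (adjusted p = 0.385).

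The median absolute difference between A and B was 0.20, against 0.24 for the 16 small subunit pairs, and it was under 0.5 for 18 of 22 pairs. Members that encode different proteins differed by a median of 0.34 in their means, over all 1931 combinations. The means of A and B correlated across the 22 pairs with Pearson r = 0.68 and Spearman rho = 0.58, where the points share their arrays and, in part, their sequence. Within single hybridizations r was 0.66, 0.43 and 0.41. The A copy had the higher mean in 10 of the 22 pairs.

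**Figure D3:**
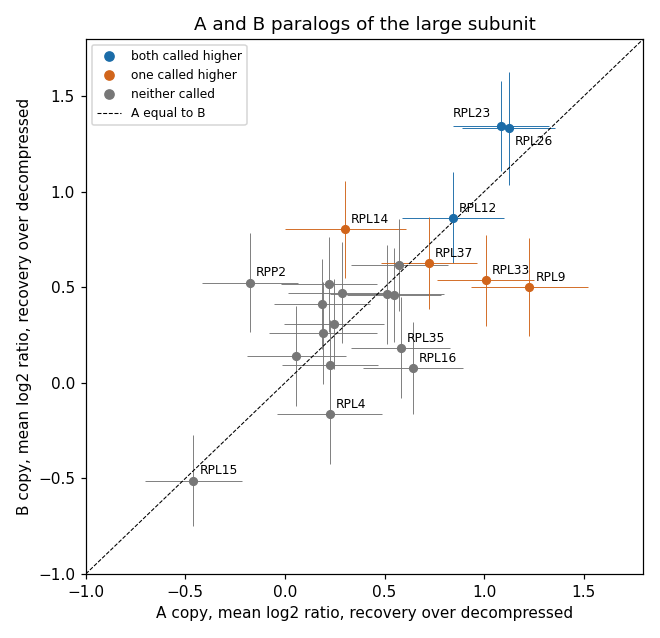
Mean log2 ratio of recovery over decompressed for the A copy (horizontal axis) and the B copy (vertical axis) of 22 pairs, with limma standard errors as bars. L12, L23 and L26 have both copies called higher, RPL15 lies lowest with both copies below 0, and RPP2 and RPL9 lie farthest from the dashed line of equal values.

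Both copies were called higher for L12, L23 and L26, 1 copy for 4 pairs, and neither for 15. As A minus B, the means of the 3 pairs called together were -0.02 for RPL12 (95% interval -0.63 to 0.58), -0.26 for RPL23 (-0.85 to 0.34) and -0.21 for RPL26 (-1.02 to 0.60). The copies of L26 were not close on single arrays, with -0.66, 0.83 and -0.79, and their small mean comes from opposite signs. The copies of L15 had a mean difference of 0.05 (-0.54 to 0.64).

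The widest difference was that of RPL9, where A minus B was 1.42, -0.22 and 0.98. In hybridizations 1 and 2 RPL9A had a low power value only, while RPL9B was averaged over both scans, so unlike scans were subtracted. At low power RPL9A was at 2.14 and 0.61 there, and RPL9B at 0.99 and 0.64. The mean difference as reported was 0.73 (95% interval -0.06 to 1.51, adjusted p = 0.603). Without hybridization 2 it was 1.20 and passed the test, in a fit that called 2 of the 22 pairs and 3 of all 38. RPP2 came next, with -0.23, -1.58 and -0.29 and a mean of -0.70 (-1.45 to 0.05, adjusted p = 0.603), so that its size rests mainly on hybridization 2. RPL16 had 0.96, -0.16 and 0.90 (mean 0.57, -0.14 to 1.27), and it too passed without hybridization 2, at 0.93. In hybridization 2 RPP2B and RPL16B had a low power value only, while RPP2A and RPL16A had both scans. RPL14 had 0.23, -0.99 and -0.74 (mean -0.50, -1.21 to 0.20).

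RPL33 differed by 0.57, 0.14 and 0.70, with A above B on every array (mean 0.47, 95% interval -0.13 to 1.08). RPL33A was called and RPL33B, at 0.54 ± 0.12, was not, but the difference between them did not pass. The same holds for the other pairs with 1 called copy: RPL9B was at 0.50 ± 0.48, RPL14A at 0.30 ± 0.89 and RPL37B at 0.63 ± 0.23. In 7 of the 22 pairs A minus B had 1 sign throughout.

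Laser power moved with the values of these genes. In hybridization 1 the low power scan gave the higher ratio for 56 of 57 members with both scans (98.2%), by a median of 0.24, against 47.6% of all genes and features and a median of -0.01. In hybridization 2 the low power ratio was higher for 15 of 45 members (33.3%), with a median difference of -0.12, against 43.9% and -0.05 overall. Small subunit genes moved alike, with 75% higher at low power and a median of 0.21 in hybridization 1, and 25% and -0.11 in hybridization 2. A value at low power alone was found for 8 members in hybridization 1 (11.9%) and 19 in hybridization 2 (28.4%), against 14.3% and 36.7% of small subunit genes and 1.86% and 2.21% of all; per the labels the second scan served to recover spots too bright for the first. The reported value of such a gene therefore rests on the low power scan. With high power scans alone 8 of 44 tested members were called higher beside a background of 16.3%, and with low power scans alone 8 of 62 beside 12.4%.

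**Figure D4:**
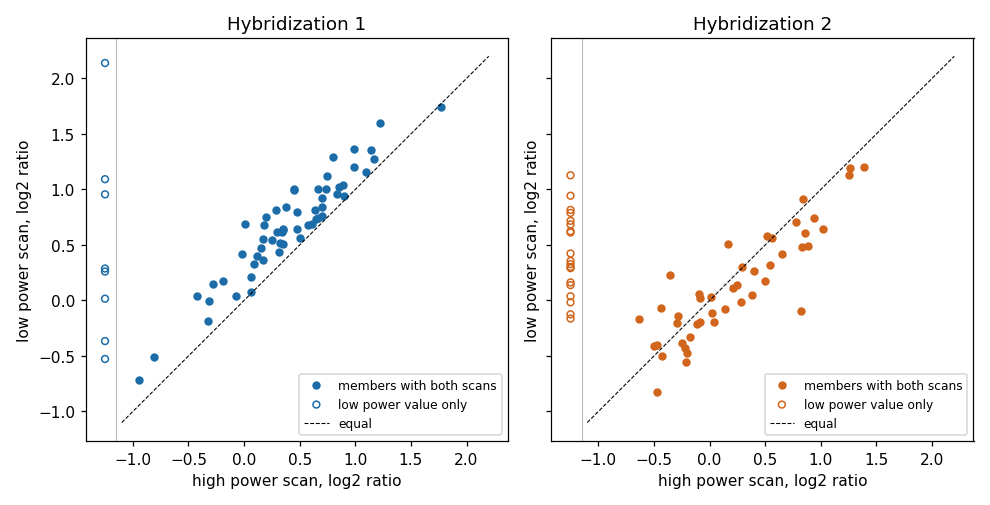
Log2 ratio of each member in the high power scan (horizontal axis) and the low power scan (vertical axis) of hybridizations 1 and 2, with open circles at the left for members with a low power value only. In hybridization 1 nearly all points lie above the line of equal values, and in hybridization 2 most lie below it.

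Ratios also differed between groups of features. Features fall into 48 groups of 132 by the first digits of their number, and the median ratio of tested genes per group ran from -0.49 to 0.51. Whether a group is a place on the array was not tested. Of the 10 called members, RPL12A, RPL12B, RPL23B, RPL26A and RPL26B lie in groups with a median above 0.4, a limit chosen after the values were seen. Such groups held 6 tested members, 5 of them called, and the other groups held 57, of which 5 were called. The share of all tested genes called in such groups was not counted, so these counts have no background. Centring within these groups subtracted, in each scan, the median of all features of a group and not of its tested genes alone. After it, 21 of 63 members were called higher beside a background of 18%. RPL12A lost its call there (0.48, adjusted p = 0.111). RPL12B kept its call and hardly moved, from 0.86 to 0.84, although the median of tested genes in its group was 0.51. RPL23B was at 0.98, RPL26A at 0.69 and RPL26B at 0.93. RPL38 at 0.80, RPP1B at 0.78 and RPL28 at 0.68 were among the 12 members that gained a call by this step.

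Gene length moved with the ratio across the array. Among tested genes whose span from start to stop is a multiple of 3 bases, a median log2 ratio of 0.55 was found for the shortest 10%, and of -0.21 for the longest 10%. Spearman's rho between span and mean ratio was -0.36 over 1748 such genes and -0.07 over the 41 members among them. Members had a median span of 831 bases, against 1008 for all tested genes. The spans include introns, which ribosomal protein genes in yeast often carry, and the 22 members whose span is not a multiple of 3 had a median ratio of 0.51, against 0.31 for the other 41. A span that is a multiple of 3 can hold introns too, so these 41 are not an intron-free set. With the trend on span fitted and applied only to spans that are multiples of 3, 6 of 41 members were called higher beside 11%, RPL15B was called lower, and the median of members was 0.13. With the trend on span removed from all genes, 6 members were called higher beside a background of 10.9%, RPL15A at -0.71 and RPL15B at -0.76 were called lower, and the median of members was 0.24 against 0.05. RPL12A, RPL12B, RPL14B and RPL37A lost their calls there, while RPL23A at 0.99, RPL23B at 1.22, RPL26A at 0.98, RPL26B at 1.20, RPL9A at 0.96 and RPL33A at 0.87 still passed. Where a span holds introns, this step treated the gene as longer than its coding part. Whether these calls hold against transcript length was not tested.

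**Figure D5:**
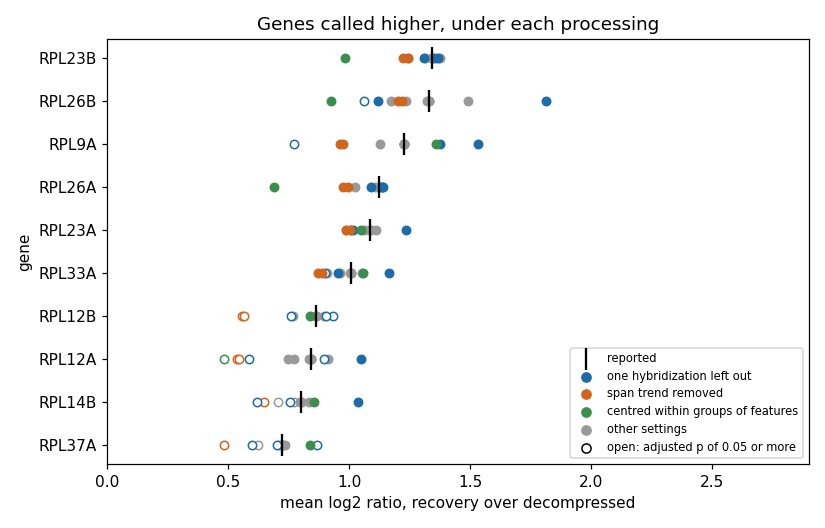
Mean log2 ratio of recovery over decompressed (horizontal axis) of the 10 genes called higher, as reported (black tick) and under each other processing (circles, open where the adjusted p was 0.05 or more). RPL23B and RPL26A have filled circles throughout, and RPL37A has the most open ones.

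Among regulators of ribosomal protein genes, 1 of 11 tested was higher and 1 lower, no more than the background of 15.1% and 12.2%. IFH1, the coactivator that binds at these promoters with Fhl1, fell, with log2 ratios of -1.11, -1.09 and -1.16 (mean -1.12 ± 0.04, SD, n = 3, limma adjusted p = 0.00379), and it kept its call in every processing tried. CKB2, a regulatory subunit of casein kinase 2, rose at 0.64, 0.61 and 1.23 (mean 0.83 ± 0.35, adjusted p = 0.0235), and missed the threshold without any 1 hybridization (0.63 to 0.94), with the span trend removed (0.66) and after centring within groups of features (0.39). SFP1, an activator of ribosomal protein genes, was at 0.07 ± 0.23 and HMO1, which binds many of their promoters, at -0.12 ± 0.50.

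Of 11 tested genes for chaperones, importers and methyltransferases that act on large subunit proteins or new chains, 1 was higher and 0 lower, beside the same background. It was BCP1, the dedicated chaperone of L23, at 0.94, 0.93 and 0.71 (mean 0.86 ± 0.13, limma adjusted p = 0.0164). It missed the threshold without hybridization 1 (0.82) and without hybridization 2 (0.83). SQT1, which escorts L10, was at 0.34 ± 0.23 and ACL4, which escorts L4, at 0.37 ± 0.03, both without a call.

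The ubiquitin genes outside the large subunit moved in opposite directions. RPS31, a fusion of ubiquitin to a small subunit protein, rose at 1.32, 1.12 and 0.78 (mean 1.07 ± 0.27, limma adjusted p = 0.0057), and was at 0.95 with no call without hybridization 1. UBI4, the stress-induced polyubiquitin gene, fell at -1.11, -0.49 and -0.48 (mean -0.70 ± 0.36, adjusted p = 0.0497), just under the threshold. UBI4 missed it without any 1 hybridization (-0.80 to -0.49), with high power scans alone (-0.65), in the fit of 5 scans with a random block (-0.70) and in both span fits (-0.65 and -0.64).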

How the data were processed

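The authors deposited log2 ratios, 1 per feature and scan, of 5 scans of 3 hybridizations; per the labels' protocols, spots of flag 0 entered a LOWESS normalization. The log base was read from the values, whose lowest equals the log2 of 0.01. Apart from the assembly of the RefSeq spans given below, the sources used here name no genome build. Coordinates and sequences are left out. Of 6336 features, 5297 carried a gene name in the platform annotation. Scans of a hybridization and features of a gene were averaged. Each gene was tested against 0 with limma 3.58.1 in R 4.3.3 (intercept, eBayes, two-sided, Benjamini-Hochberg over 1891 genes and unnamed features). A minus B differences were tested likewise over the 38 pairs with complete values, all of them ribosomal. The prior had 12.2 degrees of freedom. Only 3 arrays limit the precision. Roles, lists, pairs and alternatives were chosen with earlier results of these data known. Genes were named where they passed, had the smallest p or the lowest mean of their role, had no paralog, or belonged to the widest or pairs with 1 called copy; some others were chosen after their values were seen. Spans came from RefSeq (assembly R64) and include introns, although coding length had been planned. The steps were tested on simulated data, where 8.4% of genes with a log2 effect of 0.5 were recovered and 69.7% of those with 1. Pair differences of 1.5 were recovered in 91.5%. Members and pairs without a call are therefore not shown to be unchanged.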

Additional observations from a re-analysis of the deposited data

How the results depend on the processing

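The alternatives were the high or low power scans alone, all 5 scans in a fit with a random effect of the hybridization, centring, removal of a span trend, a minimum of 2 hybridizations, a robust prior, single features, and each hybridization left out in turn. Centring within groups of features and the trend over spans that are multiples of 3 were added after seeing the data. None of these turned the sign of a called member or of the members' median.

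Large subunit genes called higher, 10 as reported, numbered 6 with the span trend removed, 6 of 41 with the trend over multiples of 3, and 21 after centring within groups of features. Those called lower numbered 2 and 1 in the span fits and 0 in the others. The members' median, 0.44 as reported, was 0.24 and 0.13 in the span fits. With 1 hybridization left out, 4 to 7 members were called higher, at medians of 0.31 to 0.43. The lowest count and median came without hybridization 1. Small subunit genes called higher, 13 as reported, numbered 6 of 28 with high power scans, 7 of 44 and 3 of 25 in the span fits, 20 after centring within groups, and 1 to 9 with a hybridization left out. Of the 24 other genes of the pathway, 3 higher and 2 lower as reported, 6 were higher after centring within groups and 0 to 2 with a hybridization left out. Lower were 4 of 46 with a minimum of 2 hybridizations, and 1 with high power scans, the random effect, either span fit or any hybridization left out. The A minus B test called 0 large subunit pairs in every fit except that without hybridization 2, with 2 (range 0 to 2 over the hybridizations left out). These were 2 of 22, beside 3 of all 38 pairs in that fit. Pairs could not be fitted for centring, which cancels, or for single features. The causes of these shifts were not tested. No paired analysis was possible because each ratio already holds both RNAs of 1 array and there is 1 group of hybridizations.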
